A study of Mus musculus with 8 samples.

Results

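The nuclear genes for the subunits of the 5 oxidative phosphorylation complexes were examined in mouse liver after acute activation of the farnesoid X receptor (FXR) with GW4064, a synthetic FXR agonist. Members were all protein-coding rows of the expression table whose symbols begin with Nduf followed by a, b, c, s or v and a digit, with Sdha to Sdhd, with Uqcr, with Cox4 to Cox8 followed by a letter, or with Atp5. This gave 85 genes of 25124 rows, of which 20870 are protein-coding: 37 of complex I, 4 of complex II, 8 of complex III, 19 of complex IV and 17 of complex V. Ndufa11b also matched the symbols but is annotated as a pseudogene and was left out. Ndufa4 was counted with complex IV, where its product resides, and its paralogue Ndufa4l2 stayed with complex I by its symbol.

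RNA-seq was done on livers of wild-type C57BL/6 mice, described in the study as male, that had been fasted overnight and then given vehicle or 30 mg/kg GW4064 for 1 h, with 2 libraries per treatment and RNA of 2 mice pooled in each library. GRO-seq is a nuclear run-on assay that sequences RNA from engaged polymerases. It has 1 library per group here, while the study's figure legend gives n = 2 per group. The groups are vehicle and 30 mg/kg GW4064 for 1 h, in mice labelled WT and FXR KO that are also described as male. The Methods describe these as floxed Fxr mice without and with an albumin-promoter Cre, so that deletion is directed to hepatocytes and other liver cells keep the receptor. The vehicle is DMSO in the labels and corn oil in the Methods. All livers came from fasted animals, controls included. In bulk liver, fewer cells of a type and less RNA per cell cannot be told apart.

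Complexes I to IV form the respiratory chain of the inner mitochondrial membrane. Complex I takes electrons from NADH, complex II (succinate dehydrogenase) takes them from succinate, complex III passes them from ubiquinone to cytochrome c, and complex IV hands them to oxygen. Complexes I, III and IV pump protons, and complex V, the ATP synthase, uses the resulting gradient to make ATP. A few subunits are encoded by mitochondrial DNA and most, including all those described here, by nuclear genes. Hepatocytes are rich in mitochondria and, in the fasted state, depend on this system to fuel gluconeogenesis. Several complex IV subunits have separate isoforms for heart and muscle, lung or testis.

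Totals rebuilt from the values were 13924496 to 14047245 reads for the 4 RNA-seq libraries and 14173685, 10593304, 5141664 and 5069395 reads for the GRO-seq libraries of WT vehicle, WT GW4064, KO vehicle and KO GW4064. Of 7 genes with a known FXR response that could be tested, 6 rose after GW4064, among them Abcb11, the bile salt export pump, from 5.43 and 4.88 to 26.9 and 27.2 RPKM (log2 change 2.37, SE 0.075, adjusted p = 0.010, limma, and 0.073 with the replicate number as a block). Nr1h4, which encodes FXR, stood at 15.1 and 4.23 RPKM in the WT GRO-seq libraries and at 16.7 and 20.6 RPKM in those labelled KO. Its row spans the whole gene, so this density checks neither the deletion nor the label. In RNA-seq Nr1h4 was at 9.09 and 9.38 RPKM in vehicle and at 3.895 and 3.724 RPKM in GW4064. The known FXR-induced genes had a median GRO-seq log2 ratio of GW4064 over vehicle of 1.65 in WT and 0.14 in KO. Those medians were −0.094 and −0.024 for all genes. The summed level of 8 hepatocyte markers was 372 to 424 RPKM in RNA-seq, but 654 and 666 RPKM in the WT GRO-seq libraries and 1064 and 1030 RPKM in those labelled KO. In RNA-seq the Kupffer cell markers summed to 12.9 to 14.0 RPKM, the endothelial ones to 16.9 to 17.998 RPKM, the stellate cell ones to 7.56 to 8.44 RPKM, the cholangiocyte ones to 4.05 to 7.76 RPKM and the blood cell ones to 54.0 to 63.9 RPKM. The 5 muscle markers summed to at most 0.054 RPKM.

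Levels are given in RPKM, reads per kilobase of gene row scaled to library size, and a row runs over the whole gene with its introns. The exons made up a small part of most rows, so a level reads both mature and unspliced RNA. Member rows run from 475 to 105382 bases. The part of row length and exon share in the differences between genes was not tested. In WT vehicle GRO-seq, for example, Ndufs4 had 1882 reads at 1.32 RPKM and Ndufv1 had 292 reads at 3.92 RPKM. All 76 genes for generally used subunits averaged 0.5 RPKM or more in both assays. The ranges and medians of this paragraph are over these genes, 35, 4, 8, 12 and 17 in complexes I to V, without the isoforms. In vehicle RNA-seq, complex I subunits ran from 1.24 RPKM (Ndufs4) to 13.3 RPKM (Ndufv1, the NADH-binding flavoprotein), a 10.7-fold range with a median of 3.18 RPKM. Complex II ran from 3.43 RPKM (Sdhc) to 8.86 RPKM (Sdhd), complex III from 3.47 RPKM (Uqcrb) to 10.8 RPKM (Uqcr10) and complex IV from 3.06 RPKM (Cox5a) to 11.9 RPKM (Cox8a). Complex V ran from 1.64 RPKM (Atp5g2, one of 3 genes for the same c-ring protein) to 22.0 RPKM (Atp5b, the catalytic beta subunit), which was also the highest of all 85 members. Their medians, 5.18, 5.11, 5.64 and 5.52 RPKM for complexes II to V, were close together. In GRO-seq of WT vehicle liver Atp5b was again the highest, at 17.7 RPKM, and the next was Atp5a1, the other main subunit of the catalytic head, at 10.9 RPKM.

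**Figure D1:**
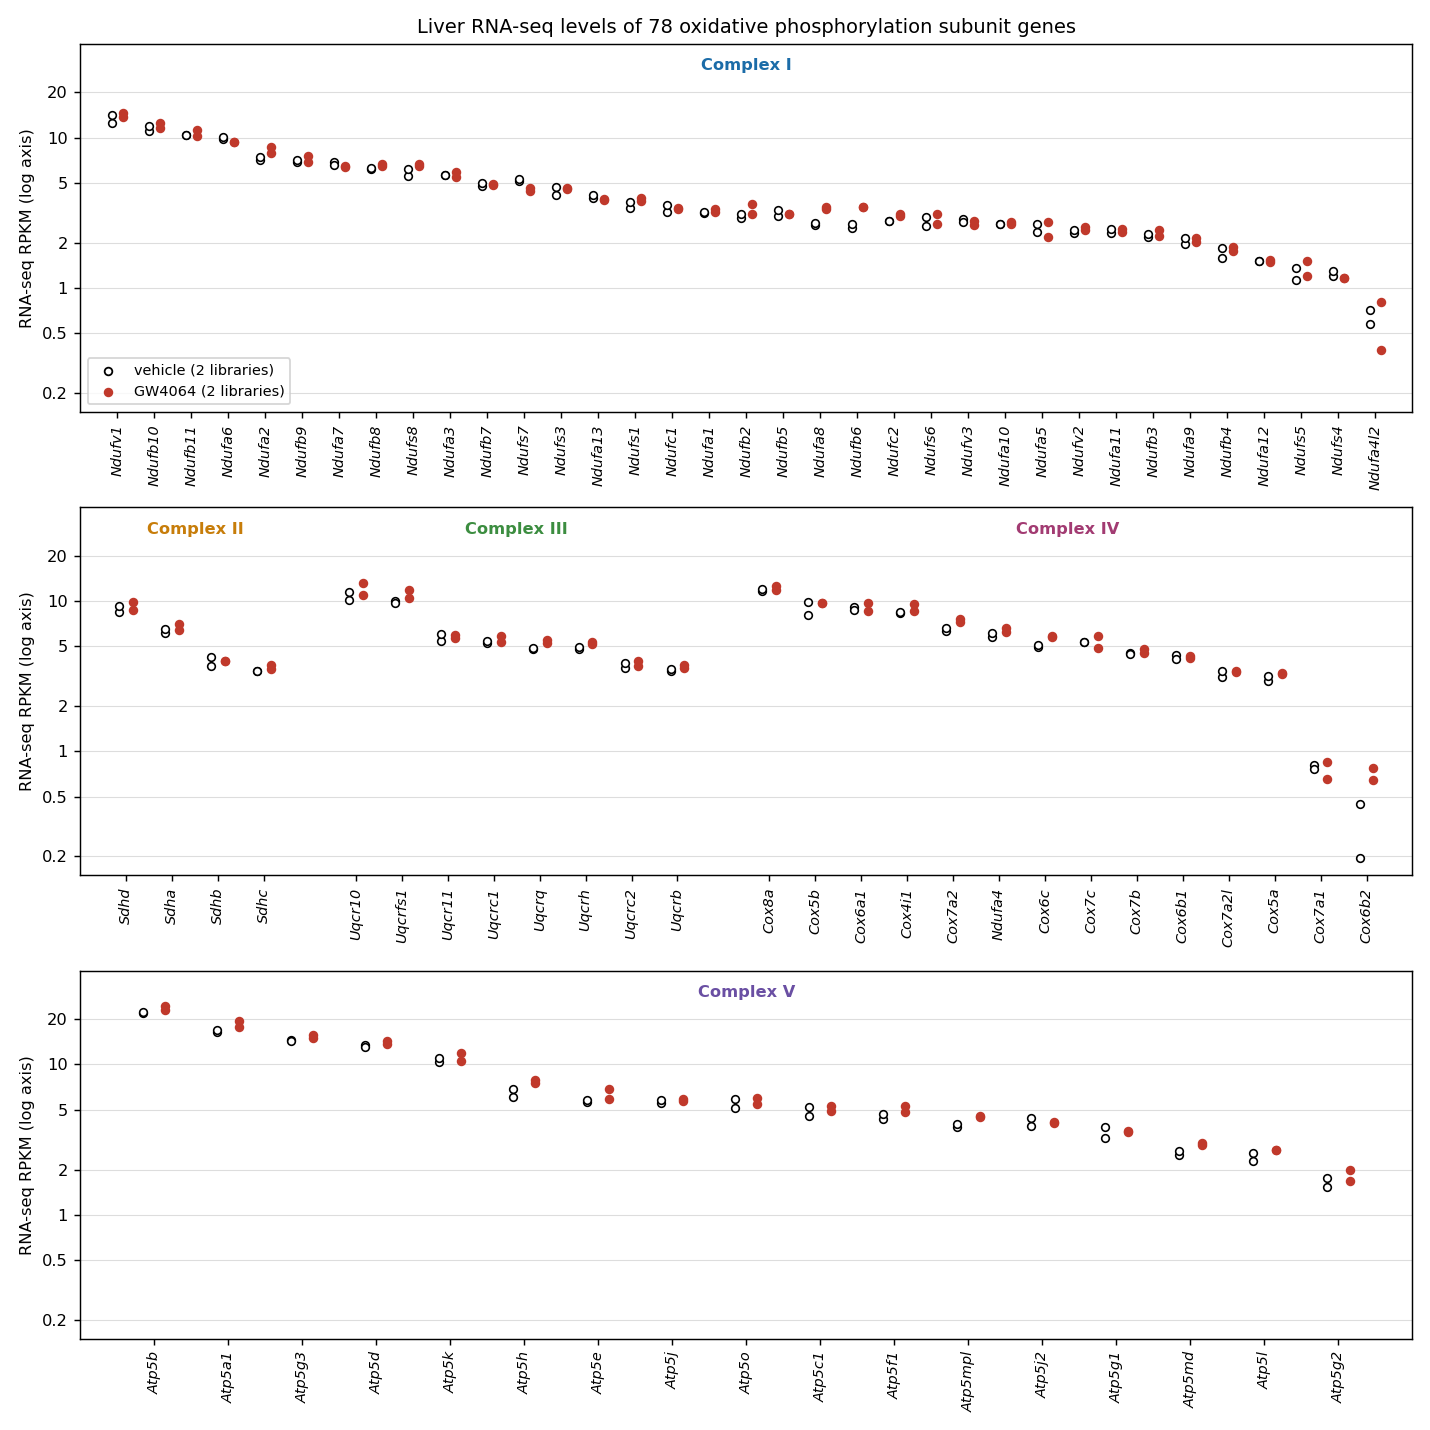
RNA-seq level (RPKM, log axis) of 78 of the 79 members that passed the filter, in the 2 vehicle libraries (open circles) and the 2 GW4064 libraries (red circles), sorted by level within each complex. Points of a gene lie close together beside the range between genes, with Atp5b near 22 RPKM at the top and Cox7a1, Cox6b2 and Ndufa4l2 below 1 RPKM.

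The 9 paralogues and tissue isoforms lay below the other subunits, from no reads at all to a mean of under 1 RPKM. Cox8c, a testis isoform, and Ndufb4c, whose sequence is wholly shared with Ndufb4, had 0 reads in all 4 RNA-seq libraries, which allows up to 3 reads in each. Cox7b2 was covered by at most 1 read. Cox6a2, the heart and muscle isoform, had 1 read in each vehicle library and 0 in each GW4064 library. Cox4i2, the isoform of lung and low-oxygen conditions, ran from 0.007 to 0.046 RPKM and Cox8b, a heart and muscle isoform, from 0.095 to 0.428 RPKM. Only Cox7a1, Cox6b2 and Ndufa4l2 passed the filter in RNA-seq, the highest with a mean of 0.770 RPKM over 4 libraries, and only Ndufa4l2 passed it in GRO-seq. Their counterparts Cox8a, Cox4i1, Cox7a2 and Cox6b1 were all above 4 RPKM in every RNA-seq library.

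Promoters were described from RefSeq sequence of GRCm38.p6, 250 bases before to 50 bases after the start site, found for 67 of the 85 genes. Nuclear respiratory factor 1 (NRF1), the ETS factor GABP (also called NRF2) and YY1 are factors known to act at many genes of this kind. The NRF1 letters (GCGCA, any base, then GCGC), read on both strands as all letters here, were in 16 of the 67 promoters (23.9%), beside 6.82% of 16344 promoters of protein-coding rows. The GABP letters CCGGAAG were also in 16 (23.9%, beside 12.4%), and the YY1 letters AAGATGGC in 8 (11.9%, beside 3.31%), 7 of which belong to complex I. By contrast, the SP1 letters GGGCGG were in 40.3% of members and 48.1% of all promoters, and the median GC content was 57.3% and 57.0%. The inverted repeat to which FXR binds, searched in the strict form GGTCA, any base, then TGACC, was in 0 of the 67 and in 5 of the 16344. A form so rare among all promoters was unlikely to turn up in 67, so its absence does not show whether FXR binds there. A match of letters is a description of the sequence only.

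The following 120 bases upstream of the start site show promoters with 3 NRF1 matches (Sdha, tied with Ndufb4 for the most), with both an NRF1 and a GABP match (Sdhd), and of the pair of members with the smallest p in RNA-seq (Ndufa8 and Ndufb6). Capitals mark the NRF1 letters in Sdha and Ndufa8 and the NRF1 and then the GABP letters in Sdhd. All 4 genes lie on the minus strand, and each sequence reads 5′ to 3′ along it, ending at the base before the start site. The Ndufb6 stretch holds none of these letters, since its GABP match lies farther upstream.
Sdha, chr13:74350241-74350360: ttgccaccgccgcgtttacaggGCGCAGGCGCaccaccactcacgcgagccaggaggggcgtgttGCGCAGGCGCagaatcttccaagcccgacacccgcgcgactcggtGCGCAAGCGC
Sdhd, chr9:50603850-50603969: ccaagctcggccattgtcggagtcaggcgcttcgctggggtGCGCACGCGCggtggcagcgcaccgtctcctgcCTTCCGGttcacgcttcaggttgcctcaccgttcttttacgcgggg
Ndufa8, chr2:36049339-36049458: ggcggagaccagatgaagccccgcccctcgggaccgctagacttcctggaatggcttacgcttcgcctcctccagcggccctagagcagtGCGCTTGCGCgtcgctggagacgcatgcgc
Ndufb6, chr4:40279422-40279541: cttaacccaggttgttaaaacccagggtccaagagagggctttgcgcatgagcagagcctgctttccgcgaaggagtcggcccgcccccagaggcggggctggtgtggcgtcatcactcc

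Whether 1 h of FXR activation altered the subunit genes was asked first in RNA-seq. A linear model was fitted with limma to log2(RPKM + 0.1) of all 11408 genes that averaged 0.5 RPKM or more, and 79 of the 85 members entered it. No member passed an adjusted p under 0.05 in either direction, whereas 2.13% of all genes tested were called higher and 1.15% lower. At an unadjusted p under 0.05, 9 members were higher and 1 was lower, beside 10.6% of all genes in each direction. With limma-voom on the rebuilt reads, 2 members, Ndufb6 and Ndufa8, were called higher and 0 lower, where that test called 4.58% of all genes higher and 4.22% lower. Both were also called on rows of at least 300 bases (3.92% of all genes higher, 2.86% lower). Ndufb6 alone was called with robust moderation (2.71% higher, 1.67% lower) and with a filter at 1 RPKM (2.9% higher, 1.7% lower). With no filter 1 member was called lower, Cox6a2, on 1 read in each vehicle library (0.406% higher, 0.228% lower). The fits also bounded the changes: the 95% interval lay within 1.5-fold either way for 77 of the 79 members (97.5%), and for 76.5% of all genes. The exceptions were Cox6b2 and Ndufa4l2, both at low levels.

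The fitted changes were small and mostly positive. They were above 0 in 66 of 79 members (83.5%), beside 49.2% of all genes, with a median log2 change of 0.063 in members and −0.003 in all genes. Other sets were also mostly above 0. The share was 87.0% for cytosolic and 69.7% for mitochondrial ribosomal protein genes. It was 80% for tricarboxylic acid cycle genes, 92.9% for mitochondrial carriers and 61.4% for assembly factors. Both GW4064 libraries lay above both vehicle libraries in 31 members (39.2%), beside 26.0% of all genes, and below in 5 members, beside 28.1%. By complex, the median log2 change was 0.046 for complex I (25 of 36 above 0), 0.077 for complex II (4 of 4), 0.096 for complex III (8 of 8), 0.085 for complex IV (13 of 14) and 0.10 for complex V (16 of 17). All 5 members with both GW4064 values below both vehicle values, namely Ndufs7, Ndufa7, Ndufa6, Ndufs4 and Ndufa13, belong to complex I. No test was made between complexes, since genes of a complex are not replicates.

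This median shift was of the order of the spread between libraries. Members summed to 426 and 446 RPKM in vehicle and to 450 and 475 RPKM in GW4064, and took 0.316% and 0.334% of all reads in vehicle and 0.334% and 0.351% in GW4064. The median member stood at 2.20 and 2.26 on the log2 scale in vehicle and at 2.23 and 2.30 in GW4064, so the groups overlapped, with an SD between replicate libraries of 0.047. After quantile normalization the median log2 change was 0.011, and 46 of 79 changes were above 0. The 92 tested genes for cytosolic ribosomal proteins, had a median log2 change of 0.15 with 1 gene called higher, Rps16 (log2 change 0.65, adjusted p = 0.043 in limma and 0.11 in limma-voom), and summed to 411 and 427 RPKM in vehicle and to 433 and 492 RPKM in GW4064. Those for mitochondrial ribosomal proteins had a median log2 change of 0.044 over 76 genes.

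**Figure D2:**
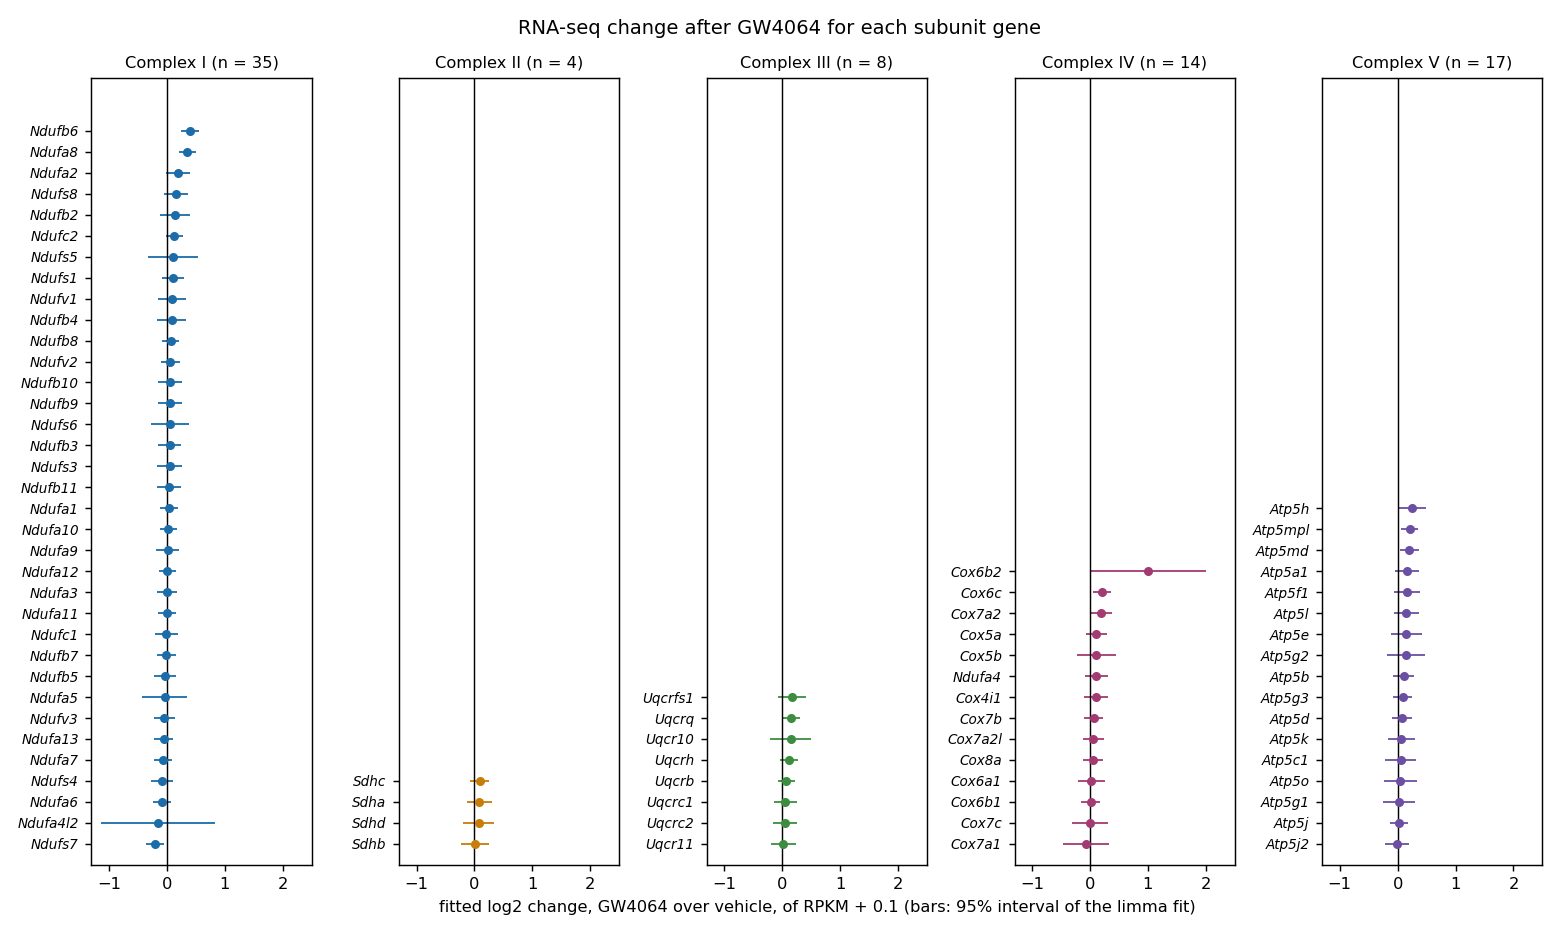
Fitted log2 change of RPKM + 0.1 between GW4064 and vehicle for 78 of the 79 members tested, by complex, with the 95% interval of the limma fit. Nearly all points lie close to and mostly right of 0, Ndufb6 and Ndufa8 lie farthest right in complex I, and the wide intervals belong to Cox6b2 and Ndufa4l2.

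The smallest p-values in complex I belonged to a pair of accessory subunits. Ndufb6, a subunit of the membrane arm, was at 2.51 and 2.65 RPKM in vehicle and at 3.43 and 3.43 RPKM in GW4064, and Ndufa8, a subunit facing the intermembrane space, was at 2.60 and 2.69 RPKM in vehicle and at 3.35 and 3.46 RPKM in GW4064. The groups did not overlap for either gene, and GW4064 lay above vehicle in this way in 26.0% of all genes. The log2 change of Ndufb6 was 0.40 (SE 0.055, 1.32-fold, 95% interval 1.18 to 1.47), and its adjusted p of 0.057 in limma fell to 0.028 in limma-voom. The log2 change of Ndufa8 was 0.35 (SE 0.053, 1.28-fold, 1.15 to 1.42), with an adjusted p of 0.064 in limma and 0.027 in limma-voom. The Ndufb6 row (chr4:40270591-40279421, mm10) shares 24.0% of its 100-base windows with other transcripts, and the Ndufa8 row (chr2:36036324-36049338) shares none.

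Other complex I genes moved less. Ndufs7, a core subunit that carries an iron-sulphur cluster next to the ubiquinone site, was at 5.12 and 5.28 RPKM in vehicle and at 4.41 and 4.61 RPKM in GW4064, without overlap. Its log2 change was −0.20 (SE 0.057, adjusted p = 0.17, limma). Among the other core subunits, Ndufs1 was at 3.43 and 3.74 RPKM in vehicle and 3.77 and 3.96 RPKM in GW4064. Its groups did not overlap. Of all genes, 26.0% were without overlap with GW4064 above vehicle and 28.1% with GW4064 below. Ndufv1 was at 12.5 and 14.1 RPKM in vehicle and 13.8 and 14.5 RPKM in GW4064, and its groups overlapped. The log2 changes of these core genes were 0.11 and 0.094, with limma adjusted p-values of 0.46 and 0.58. Ndufa4l2, an inhibitory paralogue known from hypoxia, was at 0.712 and 0.578 RPKM in vehicle and at 0.810 and 0.387 RPKM in GW4064.

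Rows within 60 kb of Ndufa8 and Ndufb6 were looked up after the values of both genes had been seen, and none of those that could be tested passed. Morn5, which encodes a MORN-repeat protein, lies 135 bases from Ndufa8 on the opposite strand and was covered by 4 and 6 reads in vehicle RNA-seq and by 45 and 28 reads in GW4064. In GRO-seq it had 6 and 33 reads in WT vehicle and GW4064, and 3 and 2 reads in the libraries labelled KO. Lhx6, a LIM homeobox gene 32615 bases away, was at 0.351 and 0.396 RPKM in vehicle RNA-seq and at 1.09 and 0.754 RPKM in GW4064 (log2 change 1.09, SE 0.20, adjusted p = 0.093, limma). Its GRO-seq reads numbered 23 and 117 in WT vehicle and GW4064, a log2 ratio of 2.77 per library total (95% counting interval 2.11 to 3.48). In the libraries labelled KO there were 7 and 9 reads, and that interval ran from −1.21 to 2.04. Ttll11, 56504 bases away, stayed between 0.022 and 0.028 RPKM in all 8 libraries. Beside Ndufb6, the row of Topors, 750 bases away on the same strand, was at 5.13 and 5.54 RPKM in vehicle and 6.27 and 6.50 RPKM in GW4064 (log2 change 0.25, SE 0.066, adjusted p = 0.16, limma). Smim27, 363 bases away, had a log2 change of 0.15 (SE 0.24, adjusted p = 0.76, limma). Ddx58, an RNA sensor gene 30766 bases away, was at 1.366 and 1.495 RPKM in vehicle and 1.69 and 1.71 RPKM in GW4064 (log2 change 0.24, adjusted p = 0.17, limma). Its GRO-seq log2 ratio was 0.56 in WT (0.32 to 0.80) and −0.41 in KO (−0.78 to −0.037). The remaining row, 4930509K18Rik, had no reads in RNA-seq.

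**Figure D3:**
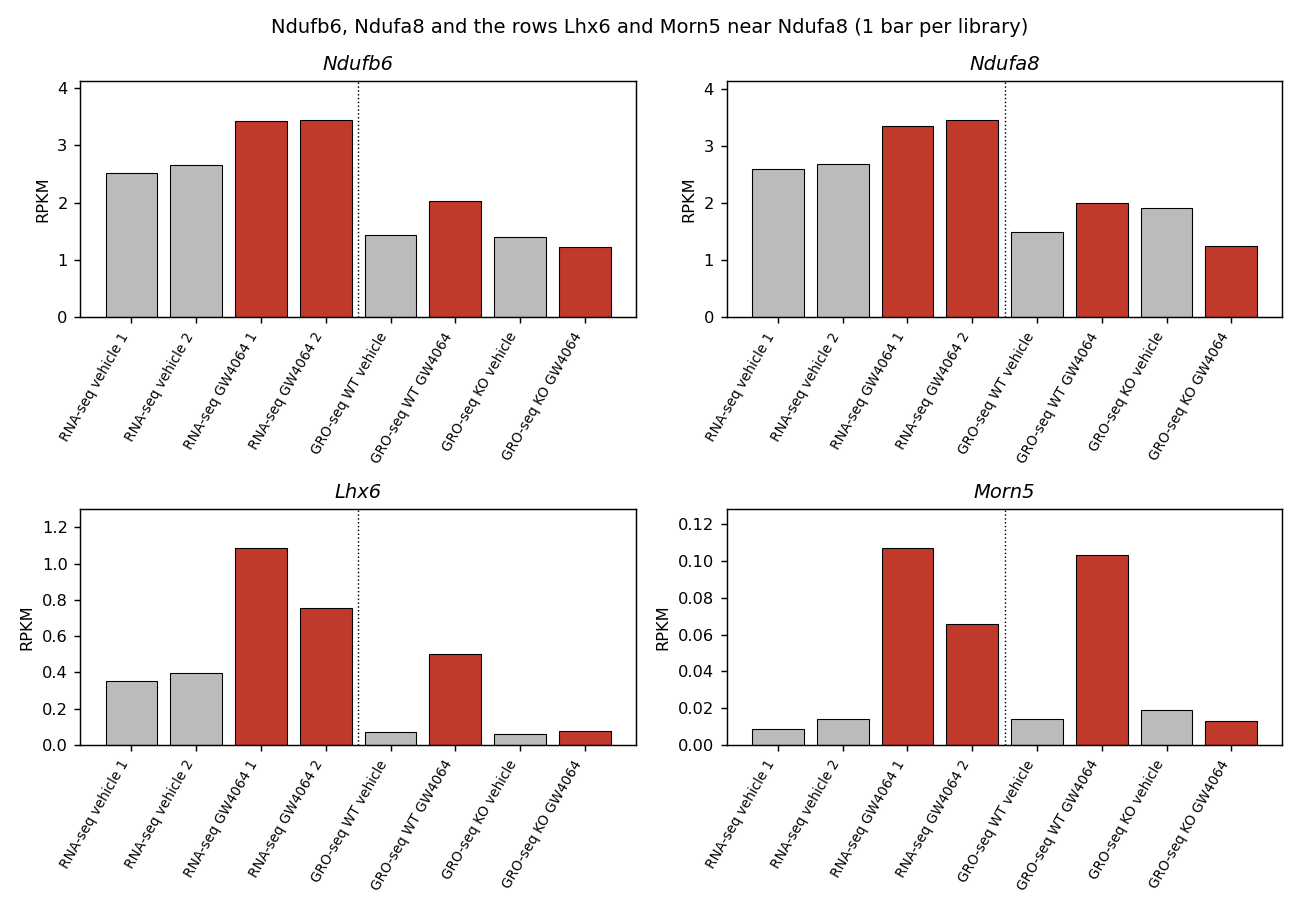
RPKM of Ndufb6, Ndufa8 and the rows Lhx6 and Morn5 near Ndufa8, with 1 bar per library (grey, vehicle; red, GW4064), RNA-seq left and GRO-seq right of the dotted line, and axes starting at 0. GW4064 bars are higher than vehicle bars in RNA-seq and in WT GRO-seq for all 4 genes, and are lower in the KO GRO-seq pair for Ndufb6, Ndufa8 and Morn5.

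No subunit of complexes II and III passed the test. Sdha, the flavoprotein that oxidises succinate, was at 6.17 and 6.56 RPKM in vehicle and at 6.43 and 7.07 RPKM in GW4064, and the groups overlapped. Its iron-sulphur partner Sdhb was at 3.70 and 4.27 RPKM in vehicle and between those values, at 4.002 and 4.021 RPKM, in GW4064. Of the membrane anchors, Sdhc was at 3.41 and 3.45 RPKM in vehicle and 3.53 and 3.77 RPKM in GW4064, and Sdhd at 8.43 and 9.28 RPKM in vehicle and 8.77 and 9.85 RPKM in GW4064. The largest of these 4 log2 changes, that of Sdhc, was 0.088 (SE 0.059, adjusted p = 0.47, limma).

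In complex III the smallest p was that of Uqcrq, a small ubiquinone-binding subunit, at 4.79 and 4.85 RPKM in vehicle and at 5.48 and 5.29 RPKM in GW4064 (log2 change 0.16, SE 0.054, adjusted p = 0.22, limma). Uqcrh, the hinge protein, was at 4.78 and 4.94 RPKM in vehicle and 5.18 and 5.37 RPKM in GW4064. The Rieske iron-sulphur protein gene Uqcrfs1 was at 10.1 and 9.69 RPKM in vehicle and 10.5 and 11.9 RPKM in GW4064, with a log2 change of 0.17 (SE 0.085). For these 3 genes the groups did not overlap, with GW4064 above vehicle as in 26.0% of all genes. Uqcrc1, a core protein of the matrix side, was at 5.29 and 5.42 RPKM in vehicle and 5.33 and 5.83 RPKM in GW4064, and its groups did overlap.

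In complex IV, Cox6c was at 4.93 and 5.10 RPKM in vehicle and at 5.75 and 5.85 RPKM in GW4064 (log2 change 0.21, SE 0.054, adjusted p = 0.16, limma). Cox7a2, the general isoform of subunit VIIa, was at 6.32 and 6.67 RPKM in vehicle and at 7.24 and 7.64 RPKM in GW4064 (log2 change 0.19, SE 0.064, adjusted p = 0.22, limma). Cox4i1, the isoform of subunit IV used in most tissues, was at 8.26 and 8.50 RPKM in vehicle and 8.60 and 9.50 RPKM in GW4064. Cox5a was at 2.94 and 3.17 RPKM in vehicle and 3.28 and 3.34 RPKM in GW4064. For these 4 genes both GW4064 values lay above both vehicle values, as in 26.0% of all genes. Cox8a, at 11.71 and 11.99 RPKM in vehicle and 11.9 and 12.6 RPKM in GW4064, overlapped. The largest fitted change of any member was that of the testis isoform Cox6b2, from 3 and 7 reads to 10 and 12 reads (log2 change 1.01, SE 0.35, adjusted p = 0.23, limma).

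Among the 5 complexes, complex V had the highest share of members without overlap, 10 of 17, all of them with GW4064 above vehicle. Of all genes, 26.0% lay above in this way and 28.1% below. Complexes III and IV were close to complex V, with 4 of 8 and 7 of 14 members above. Outside the subunit list, 15 of 20 tricarboxylic acid cycle genes and 9 of 14 mitochondrial carriers lay above, and 10 of 44 assembly factors. Atp5h, a subunit of the peripheral stalk, was at 6.09 and 6.88 RPKM in vehicle and at 7.91 and 7.55 RPKM in GW4064 (log2 change 0.25, SE 0.084, adjusted p = 0.22, limma). The small membrane subunits Atp5mpl and Atp5md were at 3.83 and 4.01 RPKM and at 2.48 and 2.64 RPKM in vehicle. In GW4064 Atp5mpl was at 4.58 and 4.49 RPKM and Atp5md at 2.91 and 3.02 RPKM, a log2 change of 0.21 in each, with adjusted p-values of 0.16 and 0.18 in limma. Of the catalytic head, Atp5a1 was at 16.4 and 16.9 RPKM in vehicle and 17.8 and 19.5 RPKM in GW4064 (log2 change 0.16, SE 0.072). Atp5b was at 21.8 and 22.2 RPKM in vehicle and 22.9 and 24.5 RPKM in GW4064 (log2 change 0.10, SE 0.063). Atp5g2 was at 1.53 and 1.75 RPKM in vehicle and 1.98 and 1.67 RPKM in GW4064, with overlap.

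Genes that serve the same complexes from outside the subunit list were read in the same fit. For all genes tested, the shares called higher and lower were 2.13% and 1.15% in limma and 4.58% and 4.22% in limma-voom. At an unadjusted p under 0.05 in limma they were 10.6% in each direction. Of 44 assembly factors, 0 passed the test in either direction in limma, with a median log2 change of 0.019, 3 higher and 1 lower at an unadjusted p under 0.05, and 0 higher and 1 lower in limma-voom. Of 16 electron carriers, ubiquinone synthesis enzymes and subunits with other symbols, 0 passed in limma and 1 was higher in limma-voom, with 4 higher and 0 lower at an unadjusted p under 0.05. The smallest p among them was that of Cycs, cytochrome c, the mobile carrier between complexes III and IV, at 1.72 and 1.80 RPKM in vehicle and at 2.62 and 2.41 RPKM in GW4064 (log2 change 0.49, SE 0.066, adjusted p = 0.054, limma). Of 20 tricarboxylic acid cycle genes and their regulators, 0 passed in limma and 3 were higher in limma-voom, with a median log2 change of 0.15 and 8 higher and 2 lower at an unadjusted p under 0.05. Of 14 mitochondrial carriers 0 passed in limma, with a median log2 change of 0.14, 4 higher and 0 lower at an unadjusted p under 0.05, and 1 higher in limma-voom. Of 23 regulators of mitochondrial gene expression 1 passed, Ppara, the fatty acid receptor of fasting liver, which fell from 12.62 and 11.97 to 8.94 and 8.92 RPKM (log2 change −0.46, SE 0.058, adjusted p = 0.049, limma). Its adjusted p ran from 0.014 in limma-voom to 0.20 without vehicle replicate 1, and leaving out any 1 of the 4 libraries ended the call. In limma-voom 1 regulator was called higher and 1 lower. The genes for NRF1 and GABP alpha, which bind the promoter letters described above, had log2 changes of −0.045 (Nrf1) and 0.040 (Gabpa).

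In GRO-seq, 77 members averaged 0.5 RPKM or more. With 1 library per group no test was possible, and a gene was called where the log2 ratio of RPKM + 0.1 passed 2-fold and 20 reads or more covered it in either of both libraries compared. No member passed 2-fold after GW4064 in WT, beside 2.56% of 10169 genes higher and 1.61% lower, or in KO, beside 0.688% higher and 0.482% lower. The median member ratio was 0.012 in WT, where the median of all genes was −0.094, and −0.035 in KO, where it was −0.024. Ratios above 0 were found for 40 members in WT (51.9%, beside 38.0% of all genes) and for 31 in KO (40.3%, beside 45.5%). Members summed to a log2 ratio of 0.018 in WT (95% counting interval −0.007 to 0.043) and of −0.035 in KO (−0.071 to 0.0005). Intervals cover counting error only.

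In WT nascent RNA the complex I sum was below 0, and the scaling decided whether its interval reached 0. Summed reads gave a log2 ratio of −0.11 for complex I (95% counting interval −0.15 to −0.071), of −0.008 for complex II, 0.064 for complex III, 0.083 for complex IV (0.012 to 0.15) and 0.15 for complex V (0.10 to 0.19). Relative to the median of all genes, −0.094, the complex I sum was −0.018 (−0.058 to 0.023), the other sums were 0.086 to 0.24, and the median ratios of all 5 complexes were above 0, from 0.065 for complex I to 0.23 for complex IV. In KO the intervals of all 5 sums reached 0, with −0.062 for complex V (−0.13 to 0.002) and −0.027 for complex I. In WT, the exact interval of a single gene lay above 0 for 12 members (15.6%, beside 17.9% of all genes) and below 0 for 9 (11.7%, beside 32.8%). In KO it lay above 0 for 2 members and below 0 for 2 (2.60% each, beside 9.91% and 13.6% of all genes). Of the 9 below 0 in WT, 7 belong to complex I, which is 19.4% of its 36 kept genes and less than the 32.8% of all genes.

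**Figure D4:**
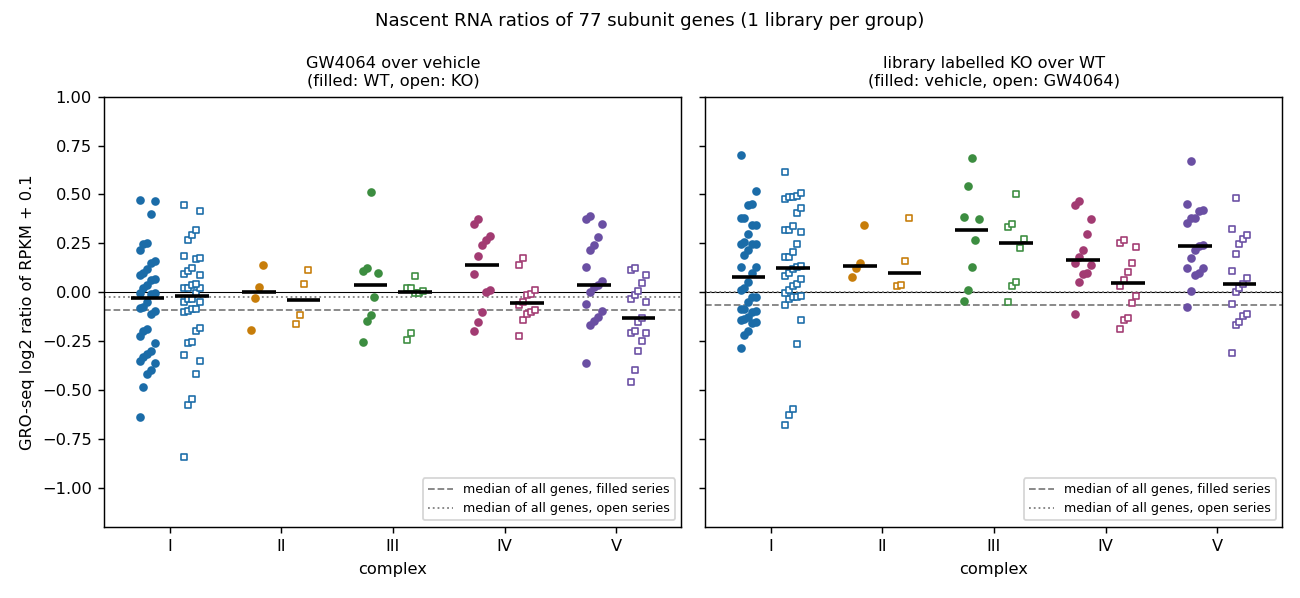
GRO-seq log2 ratio of RPKM + 0.1 for the 77 members that passed the filter, by complex: GW4064 over vehicle in WT (filled) and KO (open) on the left, and the library labelled KO over WT in vehicle (filled) and GW4064 (open) on the right. Black bars are medians over genes and grey lines the medians of all genes, and no point reaches 1 or −1.

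The highest WT ratio among members was that of Uqcrfs1, at 4.10 RPKM in vehicle and 5.89 RPKM in GW4064, and at 6.02 and 6.11 RPKM in the KO libraries. Ndufb6 was at 1.44 and 2.03 RPKM in WT and at 1.41 and 1.23 RPKM in KO. Ndufv1 was at 3.92 and 5.46 RPKM in WT and at 6.44 and 5.37 RPKM in KO. The log2 ratios in WT were 0.51 (95% counting interval 0.28 to 0.76), 0.47 (0.20 to 0.80) and 0.47 (0.24 to 0.71) for these 3 genes, and the KO intervals reached 0 in each. Ndufa8 was at 1.496 and 2.002 RPKM in WT, a log2 ratio of 0.40 (0.17 to 0.67). In KO it was at 1.93 and 1.26 RPKM (−0.58, −1.03 to −0.21), the only member whose intervals lay on opposite sides of 0 in the 2 genotypes. The share of all genes with such opposite intervals was not counted.

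The lowest WT ratios all belonged to complex I. Ndufb3, a membrane-arm subunit, was at 2.16 and 1.35 RPKM in WT (log2 ratio −0.64, 95% counting interval −0.98 to −0.38) and at 1.87 and 2.12 RPKM in KO. Ndufb4 was at 1.41 and 0.977 RPKM in WT (−0.49, −0.97 to −0.10) and at 1.32 and 0.875 RPKM in KO. The core subunit Ndufs3 was at 3.45 and 2.55 RPKM in WT (−0.42, −0.65 to −0.22) and at 3.22 and 3.64 RPKM in KO. In RNA-seq the log2 changes of these 3 genes were 0.053, 0.088 and 0.050, with overlapping groups. Ndufs7, the member with the lowest RNA-seq change, was at 3.49 and 2.71 RPKM in WT (−0.35, −0.61 to −0.11) and at 4.16 and 3.09 RPKM in KO (−0.42, −0.79 to −0.072), so its ratio lay below 0 in both genotypes. In KO the highest ratios were those of Ndufb9, at 5.04 and 6.90 RPKM (0.45, 0.14 to 0.77), Ndufb2, at 2.27 and 3.06 RPKM, and Ndufb8, at 2.17 and 2.73 RPKM. Ndufa4l2 had the lowest KO ratio, −0.84, from 10 and 5 reads. Among members with 20 reads or more, the lowest were Ndufa8, Ndufb4 (−0.54) and Atp5g2 (−0.46).

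Between genotypes, no member passed 2-fold in vehicle, beside 1.59% of all genes higher and 1.29% lower in the library labelled KO, or in GW4064, beside 2.0% higher and 3.43% lower. In vehicle, the ratio of KO over WT was above 0 in 59 of 77 members (76.6%), beside 41.1% of all genes, with a median of 0.15 in members and −0.068 in all genes. The median was 0.075 for complex I, 0.14 for complex II, 0.32 for complex III, 0.17 for complex IV and 0.23 for complex V. The highest ratio was that of Ndufv1, 0.70 (95% counting interval 0.44 to 0.99). Atp5b was at 17.7 RPKM in WT vehicle and 28.2 RPKM in KO vehicle (log2 ratio 0.67, 95% counting interval 0.56 to 0.78). Uqcr10 was at 5.70 and 9.25 RPKM in those libraries and Atp5a1 at 10.9 and 14.3 RPKM. After GW4064 the median of KO over WT was 0.10 in members and 0.003 in all genes, and 54 members lay above 0 (70.1%, beside 50.3%). The hepatocyte marker sum and the cytosolic ribosomal protein genes were also higher in the libraries labelled KO, the latter at 520 RPKM in WT vehicle and 793 RPKM in KO vehicle. Their part in the member ratios was not tested. In vehicle, the median of KO over WT was 0.15 for tricarboxylic acid cycle genes and 0.21 for mitochondrial carriers. It was −0.057 for mitochondrial ribosomal protein genes and −0.14 for assembly factors. Genotype and library cannot be told apart with 1 library each.

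RNA-seq and GRO-seq levels of vehicle-treated liver were set side by side over the same rows, so that row length cancels. The share of exons in a row differs between genes, at 30.6% for Ndufv1 and 62.8% for Uqcrq, and its part in the ratios was not tested. The assays used different mice and library methods, so only the order among genes is described. The log2 ratio of RNA-seq over GRO-seq had a median of 0.61 over 77 members and of 0.38 over 9992 genes. It was 0.74 for complex I, 0.66 for complex II, 0.72 for complex III, 0.54 for complex IV and 0.43 for complex V. Mitochondrial ribosomal protein genes had a median of 0.91 and cytosolic ones of 0.20. The highest member was Ndufv1, with 13.3 RPKM in RNA-seq and 3.92 RPKM in GRO-seq, a log2 ratio of 1.73. The lowest was Uqcrq, with 4.82 RPKM in RNA-seq and 9.82 RPKM in GRO-seq, a log2 ratio of −1.01. Its row overlaps no other row of the table.

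**Figure D5:**
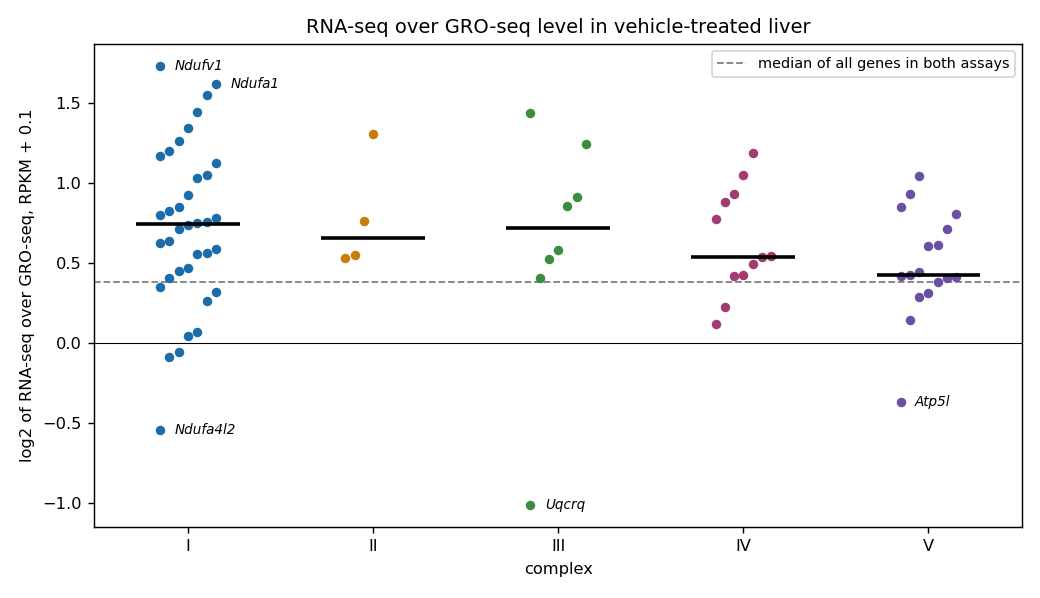
Log2 ratio of the mean vehicle RNA-seq level to the WT vehicle GRO-seq level (RPKM + 0.1 in both) for 77 members, 1 point per gene, with the median of each complex (black bar) and of all genes (dashed line, 0.38). Complex I spreads widest above the line, and Uqcrq at −1.01 stands apart at the bottom.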

How the data were processed

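The authors mapped RNA-seq and GRO-seq reads to mm10 with STAR (2.7.3a in the submitters' processing notes) and deposited RPKM per gene from HOMER, over whole rows with introns. Strand setting and treatment of repeated reads are not given in the sources used here. Whole reads were rebuilt from RPKM, row length and library totals, and came out whole within 0.15 for at least 99.9873% of values tested. They served for limma-voom and for exact counting intervals (95%, Clopper-Pearson).

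RNA-seq was fitted with limma 3.58.1 in R 4.3.3 (trend=TRUE, robust=FALSE) on log2(RPKM + 0.1) of genes averaging 0.5 RPKM or more, with Benjamini-Hochberg adjustment over all genes. The fit was tested on simulated data. Libraries are pools of different mice and replicates differed beyond counting noise. Same-numbered libraries did not deviate together. The same minimum was applied to GRO-seq.

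Genes named are the 3 smallest p-values, the highest and the lowest level per complex, set core subunits and isoforms, and the 3 highest and lowest GRO-seq ratios per genotype. Members, gene lists and this rule were chosen with earlier results of these data known. Subunit roles came from general knowledge. Promoter sequences on chromosome 18 were not used. The values of 1 member are not reported here by name, although it entered all counts and medians.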

Additional observations from a re-analysis of the deposited data

Results flagged for a closer look

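Ndufa8, the complex I accessory subunit, was the only member whose nascent RNA lay on opposite sides of no change in the 2 genotypes beyond counting error. Of all genes, 17.9% had an interval above 0 in WT and 13.6% had one below 0 in KO. How many of all genes had both was not counted, so how unusual Ndufa8 is cannot be told. Its GRO-seq log2 ratio of GW4064 over vehicle was 0.397 in WT, from 276 reads in each library, and −0.579 in the libraries labelled KO, from 129 and 83 reads. With 1 library per group, the difference between genotypes was not tested.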

How the results depend on the processing

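For all genes, the counts called higher and lower in RNA-seq (243 and 131) became 82 and 46 with no filter, 522 and 481 with limma-voom and 424 and 310 on rows of at least 300 bases. They ranged from 0 to 32 higher and 0 to 11 lower with 1 library left out, where only the fit without vehicle replicate 1 gave any call. Members called higher numbered 1 with a filter at a mean of 1 RPKM and 1 with robust moderation (Ndufb6 in both), and 2 with limma-voom and 2 on rows of at least 300 bases (Ndufb6 and Ndufa8 in both). With no filter 1 member was called lower, Cox6a2, which rests on 1 read in each vehicle library. With the replicate number as a block, 0 members and 0 genes were called in either direction and the median member change stayed at 0.063, but the numbers do not pair the samples (correlation of deviations −0.022).

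The median member change was 0.011 after quantile normalization and 0.033 to 0.11 with 1 library left out. Quantile normalization turned the fitted change of Ndufv1 to −0.013, Cox8a to −0.037, Atp5b to −0.017, Sdhb to −0.024 and Ndufb9 to −0.0019. With 1 library left out, changes ranged from −0.012 to 0.15 for Sdhd, −0.089 to 0.11 for Sdhb, −0.0072 to 0.12 for Uqcrc1, −0.23 to 0.091 for Cox7a1, −0.61 to 0.29 for Ndufa4l2, −0.013 to 0.12 for Ndufb3, −0.0074 to 0.18 for Ndufb4, −0.033 to 0.13 for Ndufs3 and −0.012 to 0.12 for Ndufb9. Median centring moved the GRO-seq member medians to 0.11 for GW4064 over vehicle in WT and to 0.22 for KO over WT in vehicle, and an added 1 RPKM moved RNA-seq over GRO-seq to 0.50. The cause of these differences was not tested. With 2 libraries per group, and 1 in GRO-seq, small changes of single genes were at the limit of what these data resolve.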
